A study of Mus musculus with 2 samples.

Results

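The TWIST, PRRX, SNAI and ZEB factors are transcription factors of mesenchymal cells, and all 8 genes of the set (*Twist1*, *Twist2*, *Prrx1*, *Prrx2*, *Snai1*, *Snai2*, *Zeb1* and *Zeb2*) were found by symbol among the 24421 rows of the count table. RNA-Seq was available for mouse cells of a pair of tissues, both from newborn animals with no genetic change or treatment named in the labels. Primary chondrocytes came from rib cartilage freed of soft tissue by collagenase and were used within a small number of passages, and primary dermal fibroblasts came from the digested skin of the back. Each cell type was represented by 1 library, so the values below compare 1 library with 1 library, and no difference could be set against the spread between animals or cultures. The study sequenced these cells to find transcription factors with higher expression in chondrocytes among candidate regulators of *Sox9*.

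TWIST factors are basic helix-loop-helix proteins that bind E-boxes as dimers with E proteins. They are made in early mesenchyme and dermis, and they hold back the maturation of skeletal cells. PRRX factors are paired-type homeodomain proteins of limb and craniofacial mesenchyme. SNAI and ZEB factors are zinc finger repressors that bind E-boxes of the CACCTG type, including those of epithelial adhesion genes, and they are best known for the epithelial to mesenchymal transition. SNAI factors are also known as repressors of cartilage matrix genes.

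The largest difference in the set lay in the TWIST pair. *Twist2* and *Twist1* were 11.6-fold and 3.49-fold higher in dermal fibroblasts, and *Zeb2* was 2.38-fold higher there. In the other direction *Snai2* was 2.05-fold higher in chondrocytes, close to the threshold. *Prrx1*, *Prrx2*, *Snai1* and *Zeb1* lay within 2-fold. Folds are ratios of counts after scaling by the trimmed mean of M values (TMM), which corrects the library size for genes that take a large share of 1 library. The interval given with a fold is a 95% exact counting interval, which covers the sampling of reads only.

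The libraries held 18788599 counted reads for chondrocytes and 17563724 for dermal fibroblasts. As a check of the labels, *Col2a1*, the main cartilage collagen, had 1447098 reads against 0, *Acan* 148105 against 35 and *Sox9* 5045 against 342, whereas *Col1a1*, the main collagen of skin, had 39143 against 322379. All 12 chondrocyte markers were over 2-fold higher in chondrocytes, against 10.9% of all genes tested. Of 9 fibroblast markers, counted without *Twist2*, 8 passed 2-fold toward dermal fibroblasts, against 15.3% of all genes tested. The exception, *Lum*, had 3191 reads in chondrocytes and 2881 in dermal fibroblasts. Both libraries also held transcripts of other cells. Summed over each marker list, the TMM-scaled CPM (counts divided by the scaled library size, per M reads) in chondrocytes and dermal fibroblasts were 18.9 and 319 for 10 keratinocyte genes, 11.5 and 82.2 for 9 melanocyte genes, 23.3 and 81.7 for 10 endothelial genes, 126 and 221 for 10 macrophage genes, 179 and 162 for 8 glial genes (31.0 and 157 without *S100b*, which cartilage also expresses), 2101 and 1410 for 12 skeletal muscle genes, and 673 and 245 for 10 osteoblast genes. *Sox10* is in both the melanocyte and the glial list. The 9 fibroblast genes without *Twist2* summed to 7128 in chondrocytes and 50714 in dermal fibroblasts, and the 12 chondrocyte genes to 112286 and 74.6. In chondrocytes *Krt6a*, *Dsg3*, *Dct*, *Slc45a2* and *Tyrp1* had 0 reads, and in dermal fibroblasts *Col2a1*, *Matn1* and *Bglap* had 0 reads.

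The promoter sequences of *Twist1* and *Twist2* are shown because these paralogs differed most, that of *Snai1* because it holds the E-box its own protein family binds, and those of the epithelial genes *Epcam* and *Krt18* because they hold the same E-box and differed in opposite directions. Each is the 250 bases before the start of the gene, 5′ to 3′ on the strand of the gene, taken from RefSeq (GRCm38.p6). Capitals mark the E-box CANNTG, which reads the same on both strands and includes CACCTG and its reverse CAGGTG, and TATAA, which was searched on the strand of the gene only.
Twist1: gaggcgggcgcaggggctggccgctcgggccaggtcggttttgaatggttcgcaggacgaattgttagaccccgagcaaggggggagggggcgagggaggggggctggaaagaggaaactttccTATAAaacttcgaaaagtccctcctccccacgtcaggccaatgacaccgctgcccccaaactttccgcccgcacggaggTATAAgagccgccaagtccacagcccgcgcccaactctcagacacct
Twist2: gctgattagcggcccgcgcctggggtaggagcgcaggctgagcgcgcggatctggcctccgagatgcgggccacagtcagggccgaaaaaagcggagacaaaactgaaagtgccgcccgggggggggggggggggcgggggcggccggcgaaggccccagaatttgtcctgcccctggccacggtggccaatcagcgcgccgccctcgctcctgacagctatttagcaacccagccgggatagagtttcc
Snai1: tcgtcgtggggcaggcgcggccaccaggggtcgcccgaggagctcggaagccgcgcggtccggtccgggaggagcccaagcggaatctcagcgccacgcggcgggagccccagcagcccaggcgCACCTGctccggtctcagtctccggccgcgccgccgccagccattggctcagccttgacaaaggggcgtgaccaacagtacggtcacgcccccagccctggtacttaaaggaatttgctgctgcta
Epcam: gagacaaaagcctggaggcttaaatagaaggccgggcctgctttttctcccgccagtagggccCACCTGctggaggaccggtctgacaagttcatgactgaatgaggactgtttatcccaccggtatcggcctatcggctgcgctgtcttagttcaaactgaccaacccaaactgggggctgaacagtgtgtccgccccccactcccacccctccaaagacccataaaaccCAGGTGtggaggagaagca
Krt18: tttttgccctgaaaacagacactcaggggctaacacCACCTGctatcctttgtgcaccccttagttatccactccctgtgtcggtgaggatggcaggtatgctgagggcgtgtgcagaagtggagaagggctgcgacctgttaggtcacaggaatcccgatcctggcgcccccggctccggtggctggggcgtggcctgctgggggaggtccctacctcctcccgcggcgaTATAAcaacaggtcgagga

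These windows lie at chr12:33957421-33957670, chr1:91801211-91801460, chr2:167537945-167538194, chr17:87635729-87635978 and chr15:102027966-102028215, all on the plus strand. Of the 8 factors, 6 had a promoter entry, with 9 windows in all. Not all of these precede the first base of the gene: those of *Prrx1* and *Prrx2* and some of *Zeb2* lie inside the gene spans given below. The *Snai1* window was the only one of these 6 genes to hold CANNTG, and its E-box was CACCTG, beginning 126 bases before the start. CANNTG was present in 66.2% of all 32851 promoter windows and CACCTG in 17.2%. The *Twist1* window held TATAA at 126 and 47 bases before the start, and the *Twist2* window held none, against 16.0% of all windows with this motif. TAATTA, a homeodomain motif, was present in the *Prrx1* window and in 4.84% of all windows. The absence of a motif says only that these letters are not in this window.

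*Twist1* encodes a factor needed for the cranial mesenchyme and the sutures, and is located on chromosome 12 (GRCm38), 33957671 to 33959831. It had 373 reads in chondrocytes and 1336 in dermal fibroblasts. *Twist2*, its close paralog, also known as Dermo1 for its expression in dermis, lies on chromosome 1 from 91801461 to 91848034. It had 114 reads in chondrocytes and 1357 in dermal fibroblasts. The paralogs thus had nearly equal read numbers in dermal fibroblasts and unequal ones in chondrocytes. The fold in dermal fibroblasts relative to chondrocytes was 3.49 for *Twist1* (interval 3.11 to 3.92) and 11.6 for *Twist2* (interval 9.57 to 14.2). Both intervals lay wholly above 2-fold. In the order of folds over all 13825 genes tested, from the highest in dermal fibroblasts, *Twist2* stood at the 1.72 percentile and *Twist1* at the 7.54 percentile. In a bulk library, fewer cells of a type and less RNA per cell cannot be told apart. Any part of fibroblasts in the TWIST reads of the chondrocyte library was not tested.

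*Prrx1* marks limb bud, craniofacial and dermal mesenchyme and lies on chromosome 1 from 163245119 to 163315145. It had the most reads of the 8 genes in both libraries, 5030 in chondrocytes and 7336 in dermal fibroblasts. *Prrx2*, which shares much of the skeletal role of *Prrx1*, lies on chromosome 2 from 30845064 to 30881251 and had 504 and 798 reads. Both were somewhat higher in dermal fibroblasts, *Prrx1* by 1.42-fold (interval 1.37 to 1.47) and *Prrx2* by 1.54-fold (interval 1.38 to 1.73). The differences were larger than the counting error but did not reach 2-fold.

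*Snai1* encodes Snail, a repressor of *Cdh1*, and lies on chromosome 2 from 167538195 to 167542814. Its reads numbered 1418 in chondrocytes and 1138 in dermal fibroblasts, 1.28-fold higher in the former (interval 1.18 to 1.38). *Snai2* encodes Slug, a factor of neural crest and mesenchyme, and lies on chromosome 16 from 14705852 to 14709395. It had 2122 reads in chondrocytes and 1064 in dermal fibroblasts. Among these 8 factors only *Snai2* passed 2-fold toward chondrocytes, at 2.05-fold, and its interval (1.90 to 2.21) reached below 2. With total counts in place of TMM its fold was 1.86. The SNAI pair was therefore on the other side of equality from the TWIST and PRRX pairs. Of 12 skeletal muscle markers, 7 were over 2-fold higher in chondrocytes and 0 in dermal fibroblasts. Of 8 osteoblast markers with at least 20 reads over both libraries, 6 were over 2-fold higher in chondrocytes and 1 in dermal fibroblasts. Over all genes tested the shares were 10.9% and 15.3%. The part of muscle and osteoblast cells in the difference of *Snai2* was not tested.

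*Zeb1* encodes a repressor with a pair of zinc finger clusters and lies on chromosome 18 from 5591327 to 5775468. Its reads numbered 961 in chondrocytes and 841 in dermal fibroblasts, 1.17-fold higher in the former (interval 1.07 to 1.29). *Zeb2*, known also as SIP1 for its binding to SMAD proteins, lies on chromosome 2 from 44983512 to 45117442. Its reads numbered 1587 in chondrocytes and 3881 in dermal fibroblasts, where its level was 2.38 times that in chondrocytes (interval 2.25 to 2.53). *Zeb2* is also expressed in macrophages, melanocyte precursors and glia. The 10 macrophage markers were each higher in dermal fibroblasts, by 1.27-fold (*C1qb*) to 7.55-fold (*Fcgr1*, with only 4 and 31 reads). Of these markers 3 were over 2-fold higher there, against 15.3% of all genes tested. The 6 glial markers with enough reads other than *S100b* were 2.23-fold (*Erbb3*) to 16.5-fold (*Foxd3*) higher in dermal fibroblasts. Of the melanocyte list, *Mitf* had 150 against 599 reads. *Sox10*, which is in that list and also among these glial markers, had 25 against 310. The part of these cells in the difference of *Zeb2* was not tested.

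**Figure D1:**
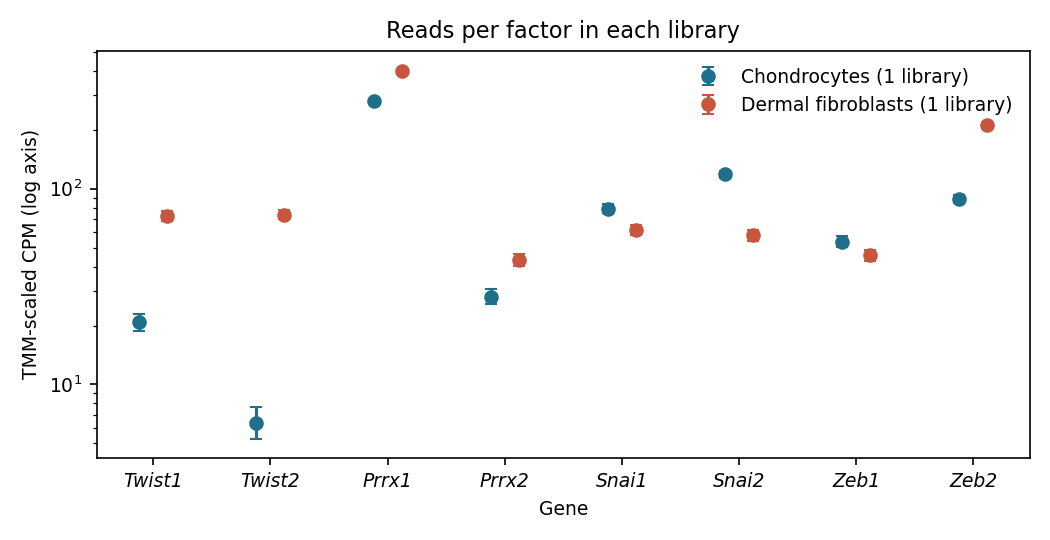
TMM-scaled CPM (log axis) of the 8 factors in the chondrocyte and dermal fibroblast libraries, 1 library each, with bars for the 95% counting interval. *Twist2* is lowest in chondrocytes at 6.36 CPM and reaches 73.7 CPM in dermal fibroblasts, and *Prrx1* is highest in both, at 281 and 398 CPM.

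Of the 8 genes, 3 passed 2-fold toward dermal fibroblasts (*Twist2*, *Twist1* and *Zeb2*), against 15.3% of all genes tested, and 1 passed 2-fold toward chondrocytes (*Snai2*), against 10.9% of all genes tested. A fold over 4 was reached by 1 gene toward dermal fibroblasts (*Twist2*) and by 0 toward chondrocytes, against 6.26% and 4.57% of all genes tested. The whole interval lay beyond 2-fold for 3 genes in dermal fibroblasts and for 0 in chondrocytes, against 10.7% and 7.04% of all genes tested. The median log2 fold of the 8 genes was -0.57, against -0.0019 over all genes tested. All 8 genes had at least 100 reads in each library, so none of them depended on the floor of 3 reads used for genes near 0. With so small a set, these counts are a description only.

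From the lowest fold in chondrocytes to the highest, the order was *Twist2*, *Twist1*, *Zeb2*, *Prrx2*, *Prrx1*, *Zeb1*, *Snai1* and *Snai2*. Neighbours in this order were compared by the odds ratio of their reads, which does not depend on the scaling between libraries. The odds ratio was 3.32 between *Twist1* and *Twist2*, 1.46 between *Zeb2* and *Twist1* (interval 1.29 to 1.67), 1.54 between *Prrx2* and *Zeb2* (interval 1.36 to 1.75), 1.67 between *Zeb1* and *Prrx1* (interval 1.51 to 1.84) and 1.60 between *Snai2* and *Snai1*. Of the 7 neighbouring pairs, the intervals of *Prrx1* and *Prrx2* (odds ratio 1.09) and of *Snai1* and *Zeb1* (odds ratio 1.09, interval 0.964 to 1.23) included 1. The order within these pairs was thus within counting error. Because the genes were first sorted by fold, each odds ratio lay above 1 by construction. The intervals cover counting error only, so for none of the 7 pairs is the order known in other animals or cultures.

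**Figure D2:**
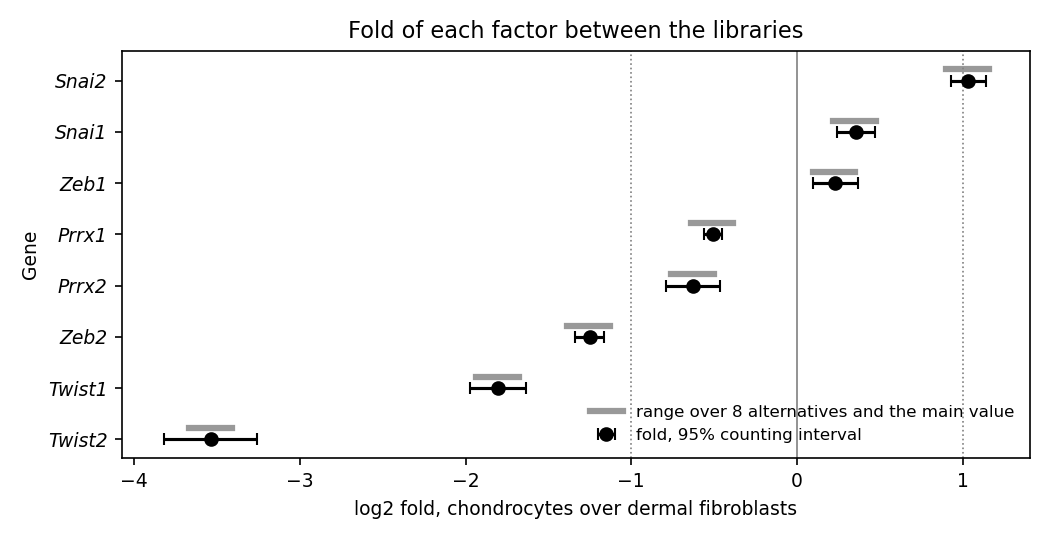
Log2 fold of each factor, chondrocytes over dermal fibroblasts (points), with its 95% counting interval (black bars) and the range over the main value and 8 alternative scalings, floors and a pseudocount (grey bars). Dotted lines mark 2-fold; *Twist2*, *Twist1* and *Zeb2* lie beyond it on the dermal fibroblast side, and the bars of *Snai2* cross it.

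Next, the balance within each pair of paralogs was compared. This balance is the share of the reads of the pair that belongs to the first gene. *Twist1* took 76.6% of the TWIST reads in chondrocytes (95% Clopper-Pearson interval 72.6 to 80.3) and 49.6% in dermal fibroblasts (47.7 to 51.5). The odds ratio was 3.32 (interval 2.65 to 4.19). *Zeb1* took 37.7% of the ZEB reads in chondrocytes (35.8 to 39.6) and 17.8% in dermal fibroblasts (16.7 to 18.9), an odds ratio of 2.79 (interval 2.50 to 3.12). The SNAI pair shifted toward *Snai2* in chondrocytes, since *Snai1* took 40.1% of its reads there (38.4 to 41.7) and 51.7% in dermal fibroblasts (49.6 to 53.8), for an odds ratio of 0.625 (interval 0.560 to 0.697). For PRRX the shares were close, as *Prrx1* took 90.9% in chondrocytes (90.1 to 91.6) and 90.2% in dermal fibroblasts (89.5 to 90.8). The interval of its odds ratio, from 0.964 to 1.22, allows a small difference in either direction. No window of 75 bases, the length of the reads, in the annotated protein-coding transcripts of the 8 genes was shared with a transcript of another protein-coding gene, so a read with no mismatch could be placed on only 1 paralog.

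**Figure D3:**
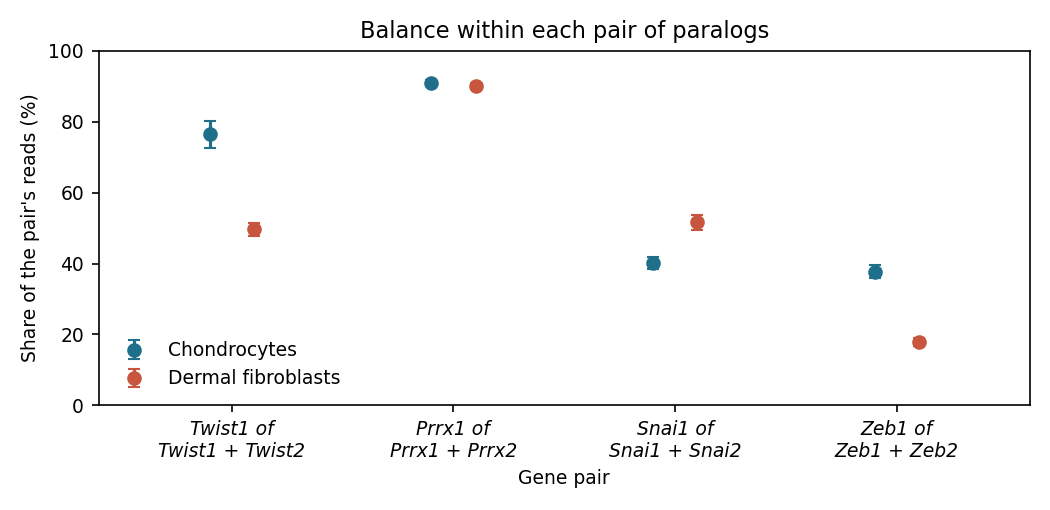
Share of the reads of each pair of paralogs (%) that belonged to the first gene named, in each library, with 95% Clopper-Pearson intervals. The shares lie apart for TWIST, SNAI and ZEB and overlap for PRRX, at 90.9% and 90.2%.

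To compare levels between the genes, CPM values were divided by the exon length of each gene (CPM per kb). In chondrocytes the highest levels were those of *Snai2* (58.3 CPM per kb, interval 55.8 to 60.8) and *Snai1* (48.8, interval 46.3 to 51.4), followed by *Prrx1* at 25.4, *Prrx2* at 14.4, *Twist1* at 12.9, *Zeb2* at 5.76, *Zeb1* at 5.52 and *Twist2* at 4.79. The counting intervals of the levels of *Prrx2* and *Twist1* overlapped, as did those of *Zeb2*, *Zeb1* and *Twist2*. In dermal fibroblasts the order was *Twist2* (55.5 CPM per kb, interval 52.6 to 58.5), *Twist1* (44.9, interval 42.5 to 47.4), *Snai1* at 38.1, *Prrx1* at 36.0, *Snai2* at 28.5, *Prrx2* at 22.2, *Zeb2* at 13.7 and *Zeb1* at 4.70. The intervals of *Snai1* and *Prrx1* overlapped there. *Twist2* was thus the lowest of the 8 factors per length in chondrocytes and the highest in dermal fibroblasts. Among all genes tested with a known length, *Twist2* had a level above 44.8% of genes in chondrocytes and above 92.9% in dermal fibroblasts, and *Snai2* above 93.5% and 85.6%.

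Summed per length, the SNAI pair made up 60.9% of the level of the 8 factors in chondrocytes and 27.3% in dermal fibroblasts. The TWIST pair made up 10.05% in chondrocytes and 41.2% in dermal fibroblasts. The shares of PRRX were 22.6% and 23.9%, and those of ZEB were 6.42% and 7.56%. These levels depend on the length used. With the longest protein-coding transcript in place of all exons, an alternative chosen after seeing the data, *Prrx1* had 61.1 rather than 36.0 CPM per kb in dermal fibroblasts and was the highest there, above *Twist2* at 55.5, and *Prrx2* at 30.3 passed *Snai2* at 28.5. The order of the 8 genes in chondrocytes was the same with both lengths. With the longest transcript the shares in chondrocytes and dermal fibroblasts were 51.9% and 23.0% for SNAI and 8.56% and 34.7% for TWIST. They were 30.4% and 31.6% for PRRX and 9.18% and 10.7% for ZEB. PRRX then exceeded SNAI in dermal fibroblasts, and ZEB exceeded TWIST in chondrocytes.

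**Figure D4:**
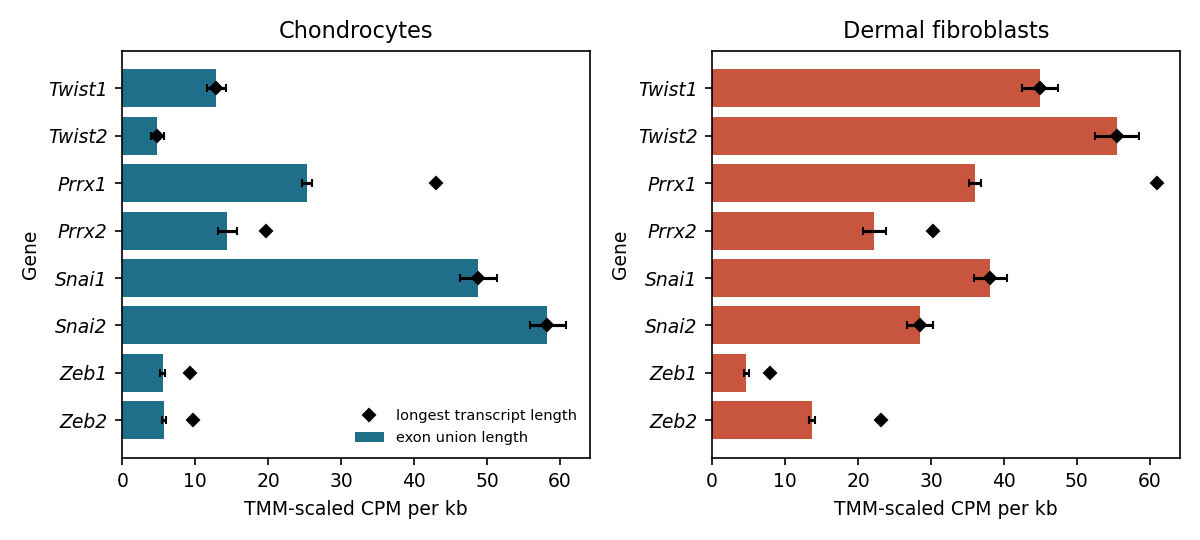
Level of each factor as TMM-scaled CPM per kb in chondrocytes and dermal fibroblasts. Bars use the length of all exons, with 95% counting intervals, and diamonds use the longest protein-coding transcript; *Snai2* and *Snai1* are highest in chondrocytes, and *Twist2* is the lowest bar in chondrocytes and the highest bar in dermal fibroblasts.

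As families, the TWIST genes together had 487 reads in chondrocytes and 2693 in dermal fibroblasts, 5.38-fold higher in dermal fibroblasts (interval 4.89 to 5.94). The ZEB genes had 2548 and 4722 reads, 1.804-fold higher there (interval 1.72 to 1.89), and the PRRX genes 5534 and 8134 reads, 1.43-fold higher there (interval 1.38 to 1.48). The SNAI genes had 3540 and 2202 reads, 1.65-fold higher in chondrocytes (interval 1.57 to 1.74).

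The known partners of these factors mostly lay within 2-fold, as did 73.9% of all genes tested. The 3 E proteins that pair with TWIST factors were all within this range, with 1914 and 1863 reads for *Tcf3*, 3785 and 3833 for *Tcf4* and 2801 and 3462 for *Tcf12*. Of 16 corepressors of SNAI and ZEB factors, 15 lay within 2-fold, among them the polycomb and histone deacetylase subunits and *Ctbp1* and *Ctbp2*, the corepressors that ZEB proteins bind. The exception was *Ajuba*, a LIM protein that joins SNAI factors to their corepressors, with 1451 reads in chondrocytes and 562 in dermal fibroblasts, 2.65-fold higher in chondrocytes (interval 2.40 to 2.93). The median log2 fold of the corepressors was 0.21. Of 8 genes acting on the turnover of these proteins, the 7 with enough reads were all within 2-fold, including *Gsk3b*, the kinase that marks Snail for degradation, with 1760 and 2619 reads.

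Among 15 genes used as mesenchymal markers or known as targets of these factors, 8 were over 2-fold higher in dermal fibroblasts, 1 was over 2-fold higher in chondrocytes and 6 lay within 2-fold, against 15.3%, 10.9% and 73.9% of all genes tested. The median log2 fold of this list was -1.76. Some genes of this list are fibroblast genes, and it overlaps the fibroblast markers used to check the labels. A tilt toward dermal fibroblasts was thus partly set by the choice of genes. *Thy1*, a surface protein of fibroblasts, was 20.1-fold higher in dermal fibroblasts (562 against 11579 reads). *Fn1*, which encodes fibronectin, was 5.96-fold higher in chondrocytes (674829 against 116258 reads). *Sparc* and *Col6a1*, genes of secreted matrix proteins, differed by less than 1.1-fold, at 1.07 and 0.954. *Dnm3os*, a noncoding transcript that TWIST1 is known to activate, was named after its values were seen. Its reads numbered 609 in chondrocytes and 2936 in dermal fibroblasts, and the latter level was 4.69-fold higher (interval 4.30 to 5.13).

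The epithelial genes that SNAI and ZEB factors repress in other cells differed in both directions. Of 18 such genes, 13 had at least 20 reads over both libraries, and 9 of these were over 2-fold higher in dermal fibroblasts and 4 over 2-fold higher in chondrocytes, against 15.3% and 10.9% of all genes tested. *Jup*, encoding plakoglobin, had 440 and 1009 reads, *Dsp*, encoding desmoplakin, 27 and 722 and *Lama3*, a chain of epidermal laminin, 5 and 413. The genes higher in chondrocytes were *Inadl*, a tight junction scaffold (also called *Patj*), with 632 and 134 reads, *Krt18* with 56 and 2, *Krt8* with 56 and 5 and *Marveld2* with 47 and 20. The whole interval lay beyond 2-fold for 8 genes in dermal fibroblasts and 3 in chondrocytes, against 10.7% and 7.04% of all genes tested. It reached below 2 for *Jup* (2.23-fold, interval 1.99 to 2.50) and *Marveld2* (2.41-fold, interval 1.40 to 4.30). *Cdh1*, *Krt8*, *Marveld2* and *Epcam* were named after their values were seen. *Cdh1*, given above as a target of Snail, had 2 reads in chondrocytes and 143 in dermal fibroblasts. All 4 genes higher in chondrocytes are named here, but only some of the 9 higher in dermal fibroblasts. *Epcam*, an adhesion molecule of epithelia, had 1 read in chondrocytes and 112 in dermal fibroblasts, a ratio of 109 (interval 19.2 to 4345). *Krt18*, a keratin of simple epithelia, had a ratio of 28.8 in the other direction (interval 7.60 to 243). The E-box CACCTG, shown in both promoters above, was present in 11 of 21 windows of the 14 epithelial genes with a promoter entry (9 genes). It was present in 0 of 9 windows of 8 mesenchymal genes and in 1 of 9 windows of 6 of the factors. Several of the factor windows belong to *Zeb2*, and some of these overlap, so they are not separate sequences. The share of CACCTG among all promoter windows was 17.2%. The epithelial genes were listed as targets of factors that bind this E-box, so its frequency among them is no independent result. The other 2 groups are too small to be told apart from the share of all windows.

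Of 11 epithelial transcription and splicing factors, 7 had enough reads, and 4 of these were over 2-fold higher in dermal fibroblasts and 0 in chondrocytes, against 15.3% and 10.9% of all genes tested. *Esrp1*, a splicing factor that ZEB1 represses, had 1 and 28 reads, and *Klf4*, which is also made in mesenchyme, had 1415 and 2090. The keratinocyte markers moved in the same direction as most of these genes. Of the 10 markers, 9 had enough reads, and 7 of the 9 were over 2-fold higher in dermal fibroblasts, led by *Krt14* (17 and 1939 reads), *Krt5* (1 and 1693) and *Krt6a* (0 and 1189). Their part in the reads of the epithelial genes was not tested.

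**Figure D5:**
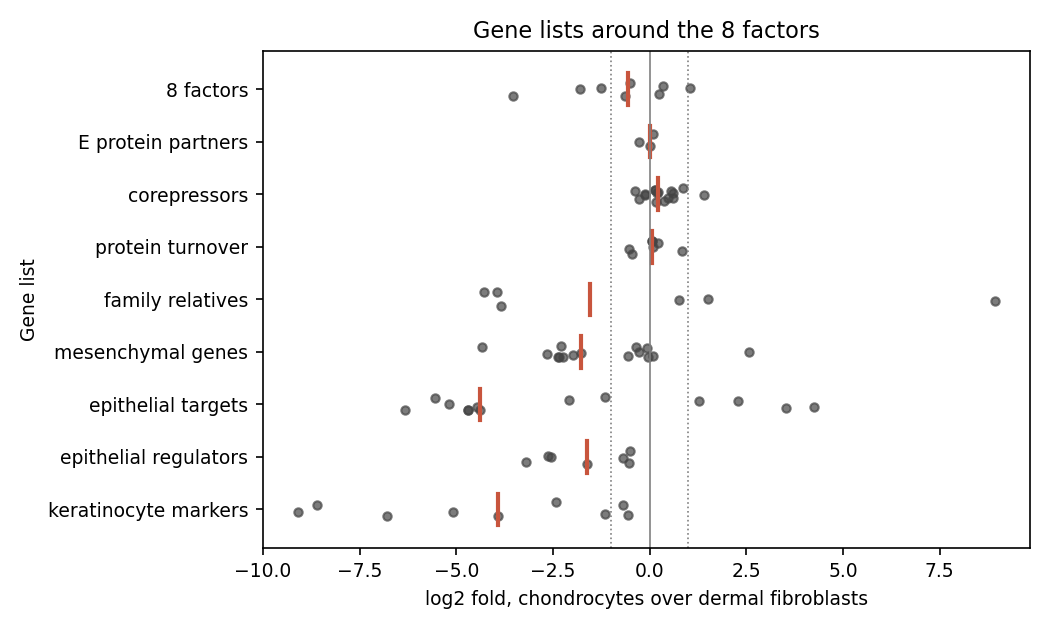
Log2 fold, chondrocytes over dermal fibroblasts, of each gene (points) with at least 20 reads over both libraries in the lists around the 8 factors, with the median of each list (red bar) and dotted lines at 2-fold. The E proteins, the protein turnover genes and all corepressors but *Ajuba* lie within 2-fold, and the medians of the mesenchymal and epithelial lists lie on the dermal fibroblast side, at -1.76 for the mesenchymal genes and -4.37 for the epithelial targets.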

How the data were processed

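RNA-Seq of 1 chondrocyte and 1 dermal fibroblast library was used. Per the methods and the submitters' processing notes, libraries prepared with a stranded mRNA kit were sequenced from 1 end to 75 bp (CASAVA 1.8.2) and mapped to mm10 with TopHat2 2.0.13, Bowtie2 2.2.3 and SAMtools 0.1.19. The authors deposited raw counts of reads for each gene symbol, as whole numbers. The counting program, its annotation and its strand setting are not given in the sources used here. *Zeb2os*, which overlaps *Zeb2*, had 9 and 29 reads, and reads of noncoding genes overlapping *Twist2* and *Prrx1* were not listed separately in the table.

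Counts were scaled with TMM factors (edgeR 4.0.16, R 4.3.3). Genes with at least 20 summed reads were tested, which here means compared with the 2-fold threshold. Counts under 3 were set to 3 for folds, except where a ratio with its interval is printed. Intervals (scipy 1.17.1) are Clopper-Pearson for folds and shares, exact Poisson for levels and exact conditional for odds ratios. They cover counting error only: PCR copies were not told apart by molecular identifiers. No p-value was computed. Calculations were tested on simulated data. Exon lengths came from GENCODE vM1 (92.4% of genes tested) and positions from RefSeq GRCm38.p6. No position was converted between builds. List symbols missing from the table were matched through RefSeq synonyms.

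The members and lists were chosen with earlier results of these data known. All 8 factors were named; of each list, its 3 most abundant genes and its largest fold in each direction could be named, and other names are marked, apart from markers given for their range or for having 0 reads. The alternatives were 5 scalings (total counts, DESeq2 1.42.0 size factors, the upper quartile, total counts without the 10 most abundant genes, and *Actb*), floors of 1 and 10 reads, a pseudocount of 1, no filter, a filter of 100 reads, a fold over 4 and the counting bound over 2.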

Additional observations from a re-analysis of the deposited data

How the results depend on the processing

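The folds of the 8 factors were recomputed under 5 scalings, 2 floors and a pseudocount, which gave 64 values. Of these, 0 changed direction and 9 lay outside the counting interval of the reported fold, all with total counts or *Actb*. The floors could not change a fold, since each gene had at least 100 reads in each library. The pseudocount changed the folds little for the same reason, and a scaling moves all 8 folds by the same factor. *Twist2* ranged from 10.6-fold to 12.7-fold higher in dermal fibroblasts, *Twist1* from 3.20 to 3.83 and *Zeb2* from 2.19 to 2.62, and *Snai2* from 1.86-fold to 2.23-fold higher in chondrocytes. The number of factors over 2-fold higher in chondrocytes fell from 1 to 0 with total counts, with a fold over 4 and with the counting bound over 2. The number higher in dermal fibroblasts was 3 and became 1 with a fold over 4. Over all genes, 1504 were higher in chondrocytes and 2111 in the other library. A fold over 4 left 632 and 866, and the counting bound over 2 left 973 higher in chondrocytes. Relative to TMM, total counts moved all log2 folds by -0.14 and *Actb* by 0.12. No paired analysis was possible because there was a single library of chondrocytes and a single one of dermal fibroblasts, and for the same reason no replicate could be left out. The counting error limits *Twist2* most, with 114 reads in chondrocytes.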

Other observations

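The closest relatives of the 8 factors were mostly at few reads. Of 17 relatives, 6 had at least 20 reads over both libraries, and 2 of these were over 2-fold higher in chondrocytes and 3 in dermal fibroblasts, against 10.9% and 15.3% of all genes tested. *Alx1*, a paired-type homeodomain factor like PRRX, had 1424 reads in chondrocytes and 2 in dermal fibroblasts, a ratio of 731 (interval 202 to 6044). Its paralog *Alx4* had 23 and 363 reads, a difference of 15.4-fold toward dermal fibroblasts (interval 10.1 to 24.6). *Shox2*, a homeodomain factor of limb mesenchyme, had 25 and 500 reads, a 19.5-fold difference in the same direction (interval 13.04 to 30.4). *Scx* and the genes after it were named after their values were seen. *Scx*, a bHLH factor of tendon progenitors, had 160 and 58 reads and was 2.83-fold higher in chondrocytes (interval 2.09 to 3.90). *Snai3*, the remaining SNAI gene, had 0 and 1 reads, and *Tcf15*, *Hand1* and *Scrt1* had 0 reads in both libraries.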
